A study of Homo sapiens with 4 samples.

Results

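The 10 genes described here code for the cytoplasmic actins (ACTB and ACTG1) and for small proteins that bind actin, namely the beta-thymosins TMSB10, TMSB4X and TMSB15A, the profilins PFN1 and PFN2, the cofilins CFL1 and CFL2, and destrin (DSTN). They were selected by symbol from the 60617 rows of a gene table, and all 10 were found, each on its own row. The set was built around TMSB10, which was picked by its level as the highest row of treated 22Rv1, at 4698 FPKM (fragments per kilobase of transcript, scaled to the mapped fragments of the library). The next row, GAPDH, stood at 3369 FPKM. The level of TMSB10 is therefore given as a description and was not tested.

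RNA came from 2 human prostate cancer lines. 22Rv1, derived from a xenograft, was grown in RPMI and received no morusin or 75 µM morusin for 6 h. PC3, derived from a bone metastasis, was grown in F12 and received no morusin or 46 µM for 6 h. Both media held heat-inactivated serum and antibiotics, and morusin is a prenylated flavone of mulberry. Each of the 4 groups is 1 library, so a difference within a line has no replicate check, and line, medium and dose cannot be told apart. The whole table is relative to library totals. FPKM summed to between 335458 and 408628 per library, and depth read from the steps between low values was roughly 19.1 to 40.6 M read pairs. Of 7 prostate luminal markers, 7 reached 1 FPKM in both 22Rv1 libraries and 2 (HOXB13 and TMPRSS2) in both PC3 libraries. Of 5 epithelial markers, 5 reached 1 FPKM in 22Rv1 and 4 in PC3, where CDH1 was at 0.190 and 0.144 FPKM. Defining markers of leukocytes (0 of 5 at 1 FPKM in every library) were near 0. Of 5 smooth muscle markers, SMTN was at 32.1 to 59.0 FPKM, MYH11 was listed at 0 in all 4 libraries, and DES, LMOD1 and ACTG2 were at most 0.324 FPKM.

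Actin is a globular protein that assembles into filaments, and the balance between free monomers and filaments is set by proteins that bind the monomer. Thymosins hold monomers in a reserve that cannot polymerise, profilins load monomers onto growing filament ends, and cofilins and destrin sever and dismantle old filaments. Free actin also binds the coactivators MRTFA and MRTFB and keeps them from the transcription factor SRF, which acts at CArG boxes in the promoters of many cytoskeletal genes, the actins among them.

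The pair of thymosins that separate the lines is shown first by its coding sequence, because the genes are short, similar and far apart in level. Both coding sequences, from GENCODE 29 on GRCh38, have 135 bases with the stop codon. They are written from the start codon, and capitals mark the 37 positions at which they differ when laid side by side without gaps.
TMSB10: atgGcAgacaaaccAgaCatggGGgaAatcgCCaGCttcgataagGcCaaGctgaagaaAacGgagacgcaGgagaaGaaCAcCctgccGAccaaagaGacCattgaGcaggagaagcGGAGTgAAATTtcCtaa
TMSB4X: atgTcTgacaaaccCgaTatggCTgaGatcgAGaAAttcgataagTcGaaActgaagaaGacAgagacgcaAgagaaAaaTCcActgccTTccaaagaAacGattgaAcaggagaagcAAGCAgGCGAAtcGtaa
The longest identical stretch they share is 10 bases, well below the read length of 150. TMSB15A lies further away, with 63.8% and 65.2% of aligned coding bases identical to TMSB10 and TMSB4X. It is nearly a copy of another gene, TMSB15B, with 136 of 138 coding bases identical and a shared stretch of 98 bases, so its value is uncertain.

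ACTB and ACTG1 have 1128 coding bases each and differ at 99 of them, and their longest identical stretch is 59 bases. Their first 60 coding bases are shown because the actin proteins of the cytoplasm differ near this end. Capitals mark the 10 differing positions.
ACTB: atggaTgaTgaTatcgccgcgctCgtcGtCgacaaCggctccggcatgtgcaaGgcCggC
ACTG1: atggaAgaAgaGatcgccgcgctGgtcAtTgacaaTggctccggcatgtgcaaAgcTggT
Rows of named pseudogenes were far below their parents for the actins and CFL1. The 12 ACTB pseudogene rows summed to at most 0.448 FPKM in a library, the 21 ACTG1 rows to at most 5.09 and the 8 CFL1 rows to at most 2.78. The 6 TMSB4X rows summed to 3.66 and 4.60 FPKM in untreated and treated PC3, against 214 and 271 for the gene. In 22Rv1 they summed to 0.248 and 0.428 FPKM, against 0.488 and 1.07 for the gene, so that its 22Rv1 level is uncertain.

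Thymosins gave the widest gap between the lines. TMSB10 (ENSG00000034510), on chr2:84905625-84906675 (GRCh38, plus strand), was at 2117 FPKM untreated and 4698 FPKM treated in 22Rv1, and at 513 and 645 FPKM in the PC3 libraries. In bulk RNA, more cells expressing a gene and more RNA per cell cannot be told apart. Both 22Rv1 libraries lay above both PC3 libraries, by 4.13-fold untreated and 7.29-fold treated. Among all genes TMSB10 ranked 8 and 1 in untreated and treated 22Rv1, and 51 in both PC3 libraries. TMSB4X (ENSG00000205542), on the X chromosome (chrX:12975108-12977227, plus strand), had the opposite order, at 0.488 and 1.07 FPKM in untreated and treated 22Rv1 and at 214 and 271 FPKM in untreated and treated PC3. Untreated PC3 was 438-fold above untreated 22Rv1, with a counting error of 0.51 on the log2 scale, since the 22Rv1 value rests on an estimated 7.93 read pairs. TMSB10 made up 99.9% of the summed FPKM of the 3 thymosins in both 22Rv1 libraries and 70.6% and 70.4% in untreated and treated PC3. TMSB15A (ENSG00000158164), on chrX:102513676-102516784 (minus strand), was at 1.06 and 2.54 FPKM in 22Rv1. In PC3 it was listed at 0 untreated and at 0.0951 FPKM treated. Its neighbour in sequence TMSB15B was between 1.58 and 2.40 FPKM in the 4 libraries.

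The actins were among the highest genes of every library. ACTB (ENSG00000075624), on chr7:5527147-5563784 (minus strand), was at 1692 and 2133 FPKM in untreated and treated 22Rv1 and at 1764 and 3076 FPKM in untreated and treated PC3. The untreated libraries were close, and treated PC3 was the highest. ACTG1 (ENSG00000184009), on chr17:81509971-81523847 (minus strand), was at 1555 and 1937 FPKM in 22Rv1 and at 713 and 1749 FPKM in PC3. Untreated PC3 stood apart as the lowest of the 4. ACTG1 held 47.9% and 47.6% of the summed FPKM of both actins in untreated and treated 22Rv1, and 28.8% and 36.2% in untreated and treated PC3.

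In each profilin and cofilin pair a single gene was far above the other in all 4 libraries. PFN1 (ENSG00000108518), on chr17:4945652-4949061 (minus strand), is the widespread profilin and was at 397 and 602 FPKM in untreated and treated 22Rv1 and at 358 and 454 FPKM in PC3. PFN2 (ENSG00000070087), on chr3:149964904-150050788 (minus strand), was at 44.7 and 45.1 FPKM in 22Rv1 and at 72.2 and 82.4 FPKM in PC3. PFN2 has an antisense gene, PFN2-AS1, listed at 0 to 0.273 FPKM, far below PFN2 itself, and reads of the pair cannot be told apart without strand. CFL1 (ENSG00000172757), the main cofilin of non-muscle cells, on chr11:65823022-65862026 (minus strand), was at 409 and 556 FPKM in 22Rv1 and at 374 and 553 FPKM in PC3. Its level was nearly the same in both treated libraries. CFL2 (ENSG00000165410), the cofilin typical of muscle, on chr14:34706769-34714823 (minus strand), was at 6.54 and 4.75 FPKM in 22Rv1 and at 14 and 11.8 FPKM in PC3. DSTN (ENSG00000125868), on chr20:17569863-17609919 (plus strand), was at 63.6 and 70.4 FPKM in 22Rv1 and at 77.9 and 90.3 FPKM in PC3. CFL2 and PFN2 were lower in both 22Rv1 libraries than in either PC3 library.

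Together the 10 genes held 1.77% of all FPKM in untreated and 2.46% in treated 22Rv1, and 1.22% and 1.93% in untreated and treated PC3. Both treated libraries lay above both untreated ones, but TMSB10, selected by its level in treated 22Rv1, is in these shares. Without TMSB10 the sums were 4170 and 5352 FPKM in 22Rv1 and 3587 and 6288 FPKM in PC3, so that treated PC3 was then the highest. These sums are not divided by the library totals, which were 356195 and 408628 FPKM in 22Rv1 and 335458 and 358823 FPKM in PC3. In order of level, untreated 22Rv1 ran TMSB10, ACTB, ACTG1, CFL1, PFN1, DSTN, PFN2, CFL2, TMSB15A and TMSB4X. Untreated PC3 ran ACTB, ACTG1, TMSB10, CFL1, PFN1, TMSB4X, DSTN, PFN2, CFL2 and TMSB15A. CFL1 and PFN1 were neighbours in both orders and within 1.05-fold of each other, and with 1 library a group no spread is at hand to separate them.

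**Figure D1:**
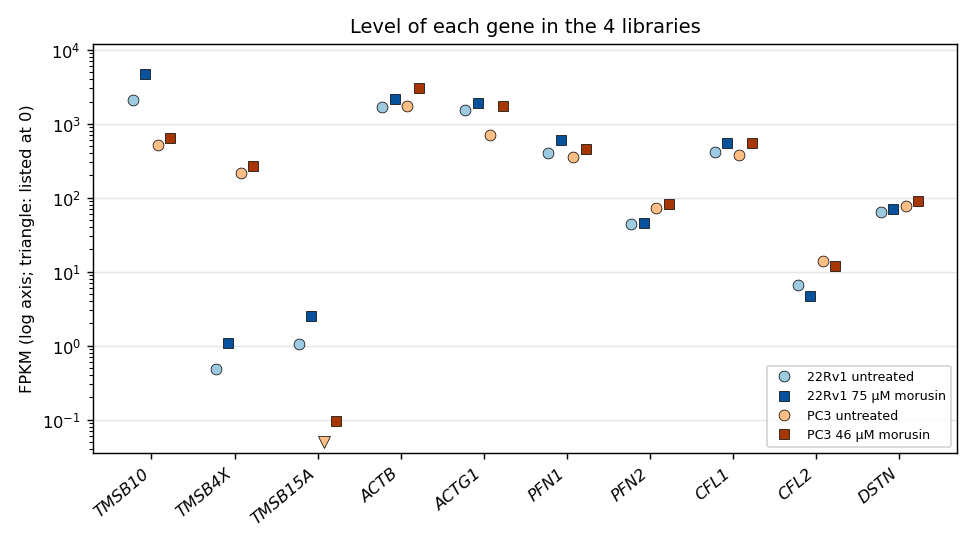
Level of the 10 genes in FPKM (log axis) in the 4 libraries, 1 point per library, with a triangle for TMSB15A listed at 0 in untreated PC3. TMSB10 leads in 22Rv1, TMSB4X is near 1 FPKM in 22Rv1 and above 200 in PC3, and the actins stand above 700 FPKM throughout.

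Counted over untreated libraries at 2-fold on the scale of log2(FPKM + 1), TMSB10, TMSB15A and ACTG1 were higher in 22Rv1 and TMSB4X was higher in PC3. That is 3 of 10 and 1 of 10 genes, against 19.8% and 19.2% of the 14352 genes measured, and the median over the 10 genes was 0.03 against 0.11 for all genes. CFL2 was just under the size, at -0.99, and the other 5 lay between -0.68 and 0.15. Genes counted had 1 FPKM or more in at least 1 untreated library. TMSB15A met this only through 22Rv1 and TMSB4X only through PC3, the line where each is high. TMSB10 was selected by its level in treated 22Rv1. These counts therefore do not support a difference of the set between the lines. TMSB15A passed on values near 1 FPKM, and it was under 2-fold with a pseudocount of 5 or after centring on the median of all genes. Other members of the families were almost silent. Of 8 further actin, thymosin and profilin genes, only ACTA2 and TMSB15B reached 1 FPKM in an untreated library, with ACTA2, the smooth muscle actin, at 1.06 FPKM in 22Rv1 and 0.717 in PC3, and ACTC1 and ACTBL2 were listed at 0 in all 4 libraries.

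Changes with morusin are given as the difference of log2(FPKM + 1) between the treated and the untreated library of a line, where either library reached 1 FPKM. In 22Rv1 all 10 genes met that filter, TMSB4X only through its treated library. TMSB10 had the largest change among them, from 2117 to 4698 FPKM, or 1.15 (2.22-fold), with a counting error of 0.01. It was the only member at 2-fold, against 3.4% of 13337 genes in all, and none was 2-fold lower, against 1.02% of all genes. This contrast shares the library that selected TMSB10. TMSB15A followed at 0.78 and PFN1 at 0.60. TMSB4X (0.48), CFL1 (0.44), ACTB (0.33) and ACTG1 (0.32) came next, then DSTN at 0.15, PFN2 at 0.01 and CFL2 at -0.39. Thus 9 of 10 genes were above 0, against 49.3% of all genes, and the median was 0.39 against -0.01. TMSB10, selected on this line's treated library, and TMSB4X, which met the filter only there, are in that count and median, so neither supports a shift of the set. Rescaled to equal sums, 6 of the 9 genes that then met the filter were above 0, with DSTN and PFN2 below it (-0.05 and -0.18), and the median was 0.14. It was 0.10 with libraries rescaled to the nuclear protein-coding sum and 0.23 with the length trend removed. Abundant genes had a like median, 0.38 over 634 nuclear protein-coding genes that reached 100 FPKM in 22Rv1, of which 43 were at least 2-fold higher. Among those, TMSB10 ranked 20, ACTB 334 and ACTG1 343. The estimated pairs for TMSB4X were 7.93 and 14.3, and for TMSB15A 17.0 and 33.2, which gives counting errors of 0.64 and 0.43 on the log2 scale. Those errors refer to the ratio without the pseudocount, where the differences were 1.13 for TMSB4X and 1.25 for TMSB15A.

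Transcript length moved with these values in 22Rv1. Genes with a median transcript under 700 bases had a median change of 0.49, and 18.4% of these 1164 genes passed 2-fold upwards. For transcripts of 3000 bases or more the median was -0.31 and the share 0.976%. TMSB10 has a transcript of 496 bases, the shortest of the set, and the smooth trend of all genes at that length was 0.47. With the trend removed the change of TMSB10 was 0.68, under 2-fold, and that of PFN2 was -0.37, while PFN1 stood at 0.35, ACTG1 at 0.24 and ACTB at 0.23. With all libraries brought to an equal sum, TMSB10 was at 0.95, again under 2-fold, with the median of all genes at -0.18, so it lay 1.13 above that median. Beyond these values the part of length in the change of TMSB10 was not tested. Length is the median over the annotated protein-coding transcripts of a gene. For PFN2 and CFL1 it was 768 and 962 bases. The transcripts read for their coding sequences have 2261 and 1878 bases. The values of PFN2 and CFL1 without the trend depend on that choice, and other lengths were not tested.

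**Figure D2:**
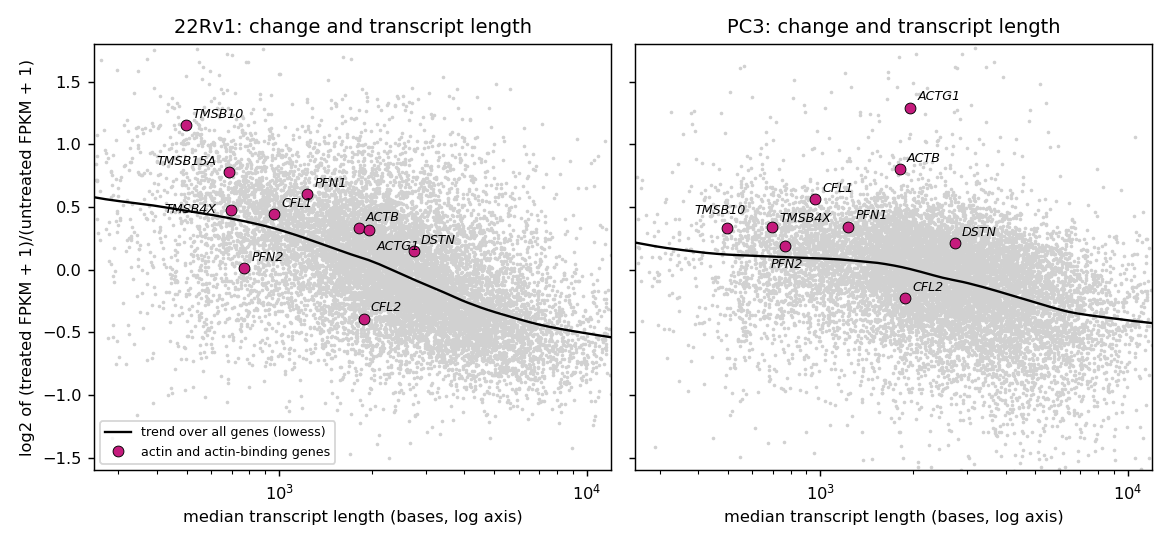
Change with morusin (log2 of FPKM + 1, treated over untreated) against median transcript length (bases, log axis) in each line, with all genes as grey points, their lowess trend as a line and the 10 genes (9 in PC3) in colour. The trend is steeper in 22Rv1, where TMSB10 at 496 bases lies 0.68 above it, and in PC3 ACTG1 and ACTB lie 1.29 and 0.78 above it.

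In PC3 the actins had the largest changes of the set. ACTG1 went from 713 to 1749 FPKM, a change of 1.29 (2.45-fold), with a counting error of 0.01. ACTB went from 1764 to 3076 FPKM, a change of 0.80 (1.74-fold), and stood at rank 2 of all genes in treated PC3 and at rank 6 in untreated PC3. CFL1 followed at 0.56. PFN1, TMSB4X and TMSB10 were alike at 0.34, 0.34 and 0.33, then DSTN at 0.21, PFN2 at 0.19 and CFL2 at -0.23. TMSB15A, at 0 and 0.0951 FPKM, was under the filter. Of the 9 genes that passed, ACTG1 alone was at least 2-fold higher, against 1.22% of 12898 genes, and none was 2-fold lower, against 2.64% of all genes. In all 8 of 9 were above 0, against 44.2% of all genes, with a median of 0.34 against -0.05. Removing the length trend left ACTG1 at 1.29 and ACTB at 0.78, and rescaling to equal sums left them at 1.20 and 0.70. Genes that reached 100 FPKM, as the actins did, had a positive median change in PC3 (0.25 over 600 nuclear protein-coding genes), and ACTG1 and ACTB ranked 19 and 32 of these.

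**Figure D3:**
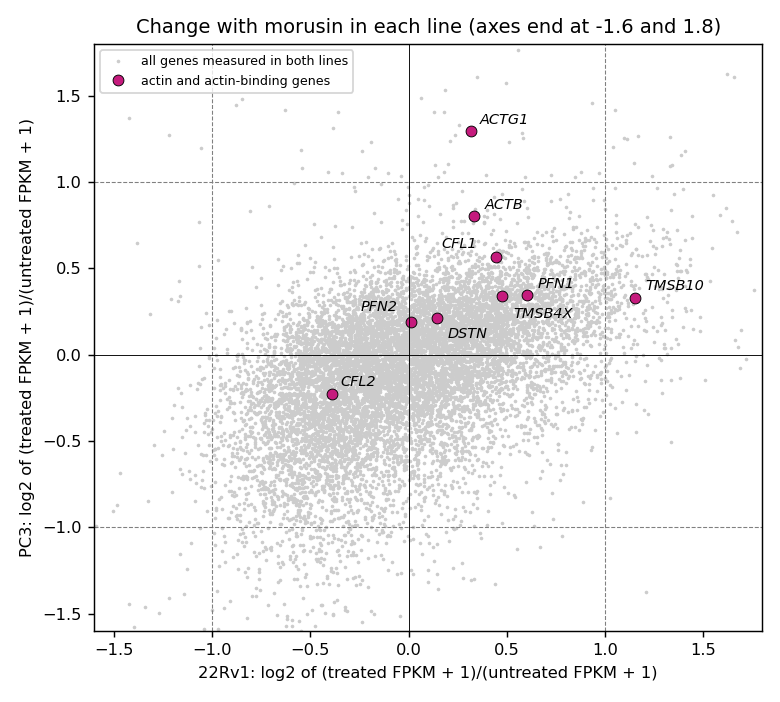
Change with morusin in 22Rv1 (x) and PC3 (y), as log2 of FPKM + 1, treated over untreated, for all genes measured in both lines (grey) and for 9 of the 10 genes (colour), with dashed lines at 2-fold. ACTG1 alone of the 9 passes the line in PC3 and TMSB10 alone in 22Rv1, and CFL2 is below 0 in both.

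Each of the 9 genes measured in both lines had the same sign of change in both as given. In 22Rv1 PFN2 and DSTN turned after rescaling, and PFN2 also turned with the length trend removed (-0.37). TMSB10 and TMSB4X, selected or filtered on the treated 22Rv1 library, are among the 9. The count therefore does not support a shared direction of the set. Over all 11235 genes measured in both lines, 32.2% had opposite signs. The change of ACTG1 was 0.98 larger in PC3 and that of ACTB 0.47 larger in PC3, while TMSB10 was 0.82 larger in 22Rv1. None of the 9 differed by 2-fold between the lines, where 3.2% of all genes were 2-fold larger in 22Rv1 and 1.02% in PC3. These differences leave no residual degrees of freedom and were not tested.

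The response shared by the lines could be tested, with 2 treated and 2 untreated libraries paired by line. Of the 9 genes tested, leaving out TMSB10, 0 passed an adjusted p of 0.05 in limma, where 0.565% of 13971 genes did. At an unadjusted p under 0.05 there were 5 of 9, where 18.5% of all genes were. Among them was TMSB15A, which entered only through its 22Rv1 libraries and at 0 and 0.0951 FPKM in PC3 shows nothing about that line. With other settings the count was 6 after median centring (20.2% of all genes) and 3 after rescaling to equal sums (25.6%). It was 1 without the filter (7.6%) and 0 without the line term (0.379%). Nuclear protein-coding genes that reached 100 FPKM had median changes of 0.38 in 22Rv1 and 0.25 in PC3. The count therefore does not support a shift of the set. ACTG1 had a mean log2 change of 0.80 ± 0.24 (SE), higher in 2 of 2 lines (limma, adjusted p = 0.156). ACTB was at 0.57 ± 0.19 (limma, adjusted p = 0.187), CFL1 at 0.50 ± 0.17 (limma, adjusted p = 0.192) and PFN1 at 0.47 ± 0.18 (limma, adjusted p = 0.216). TMSB15A was at 0.45 ± 0.19 (limma, adjusted p = 0.242) and TMSB4X at 0.41 ± 0.20 (limma, adjusted p = 0.302). The smallest sizes were those of DSTN at 0.18 ± 0.18, PFN2 at 0.10 ± 0.18 and CFL2 at -0.31 ± 0.21, with adjusted p of 0.625, 0.801 and 0.466 in limma. The SEs rest mostly on a variance pooled over all genes, with a prior of 7.94 degrees of freedom. After rescaling to equal sums that prior had 52.8, and 11.1% of all genes passed. The SE of ACTG1 therefore does not show the gap between its changes, 0.32 in 22Rv1 and 1.29 in PC3. The test itself has 1 residual degree of freedom per gene. Over its 7 alternatives the adjusted p of ACTG1 ran from 0.0229 to 1 and that of ACTB from 0.0966 to 1, and after rescaling to equal sums the adjusted p of ACTG1 was 0.0229.

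Ratios between genes of the same library do not depend on how libraries were scaled. The ratio of ACTG1 to ACTB was 0.919 and 0.908 in untreated and treated 22Rv1, and 0.404 and 0.569 in untreated and treated PC3. The proportion of the pair was nearly equal in both 22Rv1 libraries, and in PC3 it was 1.41-fold higher after treatment, still below that of 22Rv1. The ratio of TMSB10 to TMSB4X was 2.40 and 2.38 in untreated and treated PC3. In that line both thymosins were 1.26-fold and 1.27-fold higher, so their proportion was nearly unmoved. The ratio of TMSB10 to ACTB was 1.25 and 2.20 in 22Rv1, and 0.291 and 0.210 in PC3. Against ACTB, TMSB10 was 1.76-fold higher in treated than in untreated 22Rv1 and 0.721 times its untreated value in PC3. These 2 genes differ in transcript length. With the length trend removed, the change in 22Rv1 was 0.68 for TMSB10 and 0.23 for ACTB, a smaller gap in the same direction. The treated 22Rv1 library is also the one that selected TMSB10. For the families as sums, the ratio of thymosin FPKM to actin FPKM was 0.652 and 1.16 in 22Rv1 and 0.293 and 0.190 in PC3. TMSB10 made up 99.9% of the thymosin sum in both 22Rv1 libraries, so the family ratio there repeats TMSB10 and is no separate result. Summed actin was 3248 and 4069 FPKM in 22Rv1 and 2477 and 4825 FPKM in PC3.

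The less abundant copies were compared with the abundant gene of their family. CFL2 to CFL1 was 0.0160 and 0.00854 in untreated and treated 22Rv1 and 0.0375 and 0.0214 in PC3, which is 0.534 and 0.571 times the untreated ratio. DSTN to CFL1 was 0.155 and 0.127 in 22Rv1 and 0.208 and 0.163 in PC3. PFN2 to PFN1 was 0.113 and 0.0749 in 22Rv1 and 0.202 and 0.182 in PC3. All 3 ratios were lower in both treated libraries. Genes of a pair differ in length. With the length trend removed the change in 22Rv1 was 0.22 for DSTN and 0.11 for CFL1, which turns the direction of that ratio. The length used for CFL1 was 962 bases, while the transcript read for its coding sequence has 1878. Whether the turn holds at that length was not tested. All 3 ratios were higher in untreated PC3 than in untreated 22Rv1. CFL1 to PFN1 stayed near 1, between 0.923 and 1.22 in the 4 libraries.

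**Figure D4:**
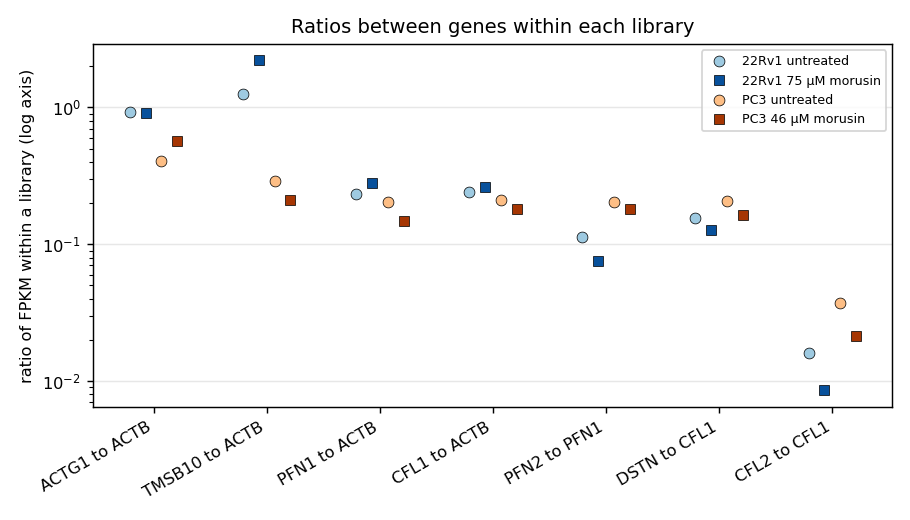
Ratio of FPKM between 2 genes of the same library (log axis), 1 point per library. TMSB10 to ACTB is higher in treated than untreated 22Rv1 (2.20 and 1.25) and lower in treated than untreated PC3 (0.210 and 0.291), and ACTG1 to ACTB moves only in PC3.

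The promoter of ACTG1 is printed because ACTG1 had the largest change of the set in PC3 and its window holds the letters to which SRF binds. RefSeq promoter windows on GRCh38.p14, from 250 bases before to 50 after the start site, were found for 8 of the 10 genes, not for ACTB or PFN2. RefSeq start sites are not the outer gene ends of GENCODE given above, and both windows overlap the printed gene spans. Below are the 130 bases before the start of ACTG1 (chr17:81512800-81512929, minus strand) with the CArG box in capitals, and the 100 bases before that of TMSB10 (chr2:84905556-84905655, plus strand) with the letters TATAA in capitals.
ACTG1: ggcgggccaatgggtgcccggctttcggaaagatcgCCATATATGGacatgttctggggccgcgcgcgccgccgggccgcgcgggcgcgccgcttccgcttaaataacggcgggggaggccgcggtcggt
TMSB10: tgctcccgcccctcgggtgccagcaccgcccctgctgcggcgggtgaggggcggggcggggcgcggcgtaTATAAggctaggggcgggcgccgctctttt
The CArG box of ACTG1 begins 94 bases before the start site. A CArG box (CC, then 6 letters of A or T, then GG, searched on both strands) was found in 1 of the 8 genes and in 1.29% of all 35116 windows. TATAA on either strand was found in TMSB10 alone of the 8, beginning 30 bases before the start, and in 20.4% of all windows. GGGCGG on either strand was in 8 of 8 genes and in 45% of windows, with overlapping copies counted, and TMSB10 held 5 copies. Genes with a CArG box in their window were 2-fold higher in PC3 in 5 of 139 cases (3.6%), against 0.801% of 9738 genes with a window, but their median change of -0.04 was near that of all (-0.06). ACTG1, whose change in PC3 prompted this look, is 1 of the 5. In 22Rv1 genes with a CArG box passed 2-fold in 3 of 141 cases (2.13%), against 2.16%. A match is a description of these letters and no evidence of binding.

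The wider actin machinery was read from 6 lists of genes. Among 18 cofilin partners and regulators, 0 were at 2-fold in either line, with medians of 0.01 in 22Rv1 and -0.04 in PC3. CORO1B, a coronin that works with cofilin at filament networks, was at 34.2 and 59.9 FPKM in 22Rv1 and at 21.4 and 33.1 FPKM in PC3. Of the slingshot phosphatases, which activate cofilin, SSH3 was at 30.4 and 52.9 FPKM in 22Rv1 and at 13.6 and 12.2 in PC3, and SSH2 at 6.87 and 7.58 FPKM in 22Rv1 and at 5.65 and 2.79 in PC3. GMFB, a destrin-like protein of branched actin, was at 17.9 and 11.5 FPKM in 22Rv1 and at 21.8 and 17.8 in PC3. The medians of the 10 genes were 0.39 in 22Rv1 and 0.34 in PC3. The lists were not matched for level or transcript length. Nuclear protein-coding genes that reached 100 FPKM had medians of 0.38 in 22Rv1 and 0.25 in PC3. The gap between the lists is therefore a description only.

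Among 14 genes of the Arp2/3 complex, which starts branched filaments, and of its activators, 0 were at 2-fold in either line, with medians of -0.12 in 22Rv1 and 0.06 in PC3. WASF2, an activator of the complex, had 17.6 FPKM in treated against 29.3 in untreated 22Rv1, and 13.8 against 27.1 in PC3. ARPC3, a subunit, was at 133 against 85.0 FPKM in 22Rv1 and 178 against 157 in PC3. ACTR2 was at 50.1 against 66.2 FPKM in 22Rv1 and at 128 against 118 in PC3, and WASL at 14.9 against 20.3 FPKM and at 14.5 against 12.6.

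Formins and Ena/VASP proteins elongate unbranched filaments from profilin-bound actin. Of 11 measured in 22Rv1, 1 was at least 2-fold higher, against 3.4% of all genes. It was FHOD1, at 11.7 against 5.12 FPKM, and it was at 8.09 against 10.2 FPKM in PC3. DIAPH1, an abundant formin, had 30.1 FPKM in treated and 52.5 in untreated 22Rv1, and 29.1 and 48.1 in PC3. DAAM1 was at 7.33 against 12.3 FPKM in 22Rv1 and 3.26 against 4.18 in PC3, and DIAPH2 at 2.42 against 2.98 and 5.30 against 3.01. The list medians were 0.05 in 22Rv1 and -0.01 in PC3.

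Capping, crosslinking and motor genes differed in their medians, at -0.01 over 25 genes in 22Rv1 and 0.22 over 26 genes in PC3. In PC3 21 of 26 were above 0 (44.2% of all genes) and 0 at 2-fold higher (1.22% of all genes). In 22Rv1 12 of 25 were above 0 (49.3% of all genes) and 1 at 2-fold higher (3.4% of all genes). The 1 was TPM2, a tropomyosin, at 3.61 against 1.09 FPKM and its value was looked up for this count. ACTN4, an actin crosslinker, had 251 against 147 FPKM treated against untreated in PC3, and 172 against 164 in 22Rv1. MYH9, the heavy chain of non-muscle myosin, had 181 against 122 FPKM treated against untreated in PC3, and 79.6 against 97.8 in 22Rv1. TPM4 had 152 against 107 FPKM treated against untreated in PC3, and 50.6 against 65.3 in 22Rv1. Untreated PC3 was at least 2-fold above untreated 22Rv1 for 13 of 27 of these genes (19.2% of all genes) and below it for 1 (19.8% of all genes).

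In the SRF and MRTF list, 16 genes were measured in 22Rv1, with 2 past 2-fold upwards and 1 downwards. In PC3 it was 3 of 18 upwards and 0 downwards. Over all genes the shares were 3.4% upwards and 1.02% downwards in 22Rv1, and 1.22% and 2.64% in PC3. The list medians were 0.03 in 22Rv1 and 0.21 in PC3. FOS, an immediate early gene, was at 6.30 against 0.784 FPKM in 22Rv1 and 1.89 against 0.208 in PC3. It was the 1 gene of all 6 lists that passed the shared test (limma, mean log2 change 1.65 ± 0.22 SE, adjusted p = 0.0135), which 0.565% of all genes passed. FOS met the 1 FPKM filters, in each line and in the shared test, only through treated libraries, where it is high. The call of FOS therefore gives no support for a change. With a pseudocount of 5 its adjusted p was 0.141. TAGLN, at 3.49 against 1.21 FPKM, was the other gene at 2-fold in 22Rv1. CCN1 and CCN2, secreted matrix proteins that respond to SRF and to YAP, were at 558 against 33.8 and 114 against 25.8 FPKM in PC3 and at most 2.24 FPKM in 22Rv1. MRTFB was at 4.72 against 10.5 FPKM in 22Rv1 and 3.75 against 5.82 in PC3. MRTFA was at 5.04 against 4.82 and 8.49 against 9.24 FPKM, and SRF itself at 14.9 against 16.2 and 9.61 against 12.5 FPKM.

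**Figure D5:**
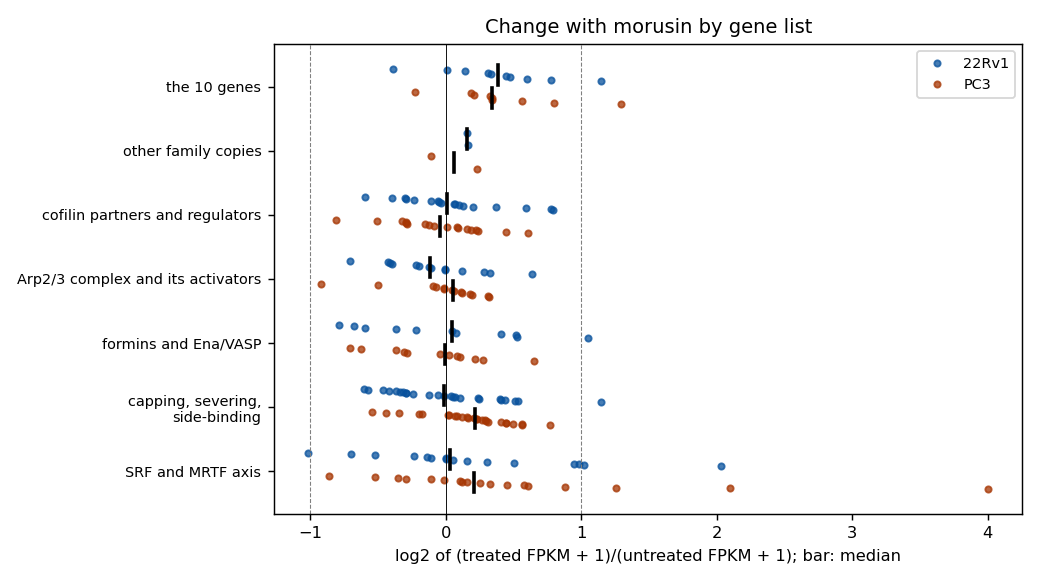
Change with morusin (log2 of FPKM + 1, treated over untreated) for the 10 genes and for 6 lists of actin-related genes, 1 point per gene with 1 FPKM or more in the line, with a bar at each median. The medians of the 10 genes are 0.39 in 22Rv1 and 0.34 in PC3, and those of the other lists lie between -0.12 and 0.22. The lists were not matched for level or transcript length.

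Genes with a pattern like that of TMSB10 were found by the distance between log2(FPKM + 1) values over the 4 libraries, each gene centred on its mean, among 877 genes that reach 100 FPKM. The nearest were NPDC1, a neural differentiation protein, at a distance of 0.12, ATP5MF, a subunit of the mitochondrial ATP synthase, at 0.13, the peptidase DPP7 at 0.21, the mitochondrial GTPase RHOT2 at 0.23 and the ribosomal protein gene RPS20 at 0.30. ATP5MF was at 350 and 754 FPKM in untreated and treated 22Rv1 and at 92.1 and 107 FPKM in PC3. The nearest to ACTB was ACTN4, at 0.21, then EIF4A2, a translation initiation helicase, at 0.23, PRKCSH, a glucosidase subunit, at 0.23 and GTF3A at 0.28. With 4 libraries such likeness is a description only.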

How the data were processed

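RNA-seq libraries of 22Rv1 and PC3 cells were made with a TruSeq RNA v2 kit and read as paired 150-base reads, per the labels' protocols. Per the submitters' processing notes, Trimmomatic, HISAT2, StringTie and the GRCh38 build were used. Their versions, the annotation and the strand setting were not given in the sources used here. FPKM per gene was deposited, 1 column per library, and no counts, so no count test was used. Symbols came from a name table (60261 of 60617 IDs matched), with the highest row used where 72 symbols repeat. Positions and lengths (median over protein-coding transcripts) came from GENCODE 29 and promoters from RefSeq. A pseudocount of 1 and a filter of 1 FPKM were used. Such changes understate low genes. Depth was estimated from single-exon genes, where 57 to 81 of 1692 to 1981 low values lay at the step (tolerance 1.5%), so counting errors are rough and cover counting only; they refer to the ratio without the pseudocount. The shared response was tested with limma 3.58.1 (R 4.3.3) with line as a term, paired by line, Benjamini-Hochberg adjusted over all genes. P-values rest only on the spread between these libraries, in large part on a variance pooled over all genes. On simulated data for this test (13641 genes, noise SD 0.25) limma called 50 of 50 genes changed by 2, 50 of 50 changed by -2, 36 of 50 changed by 1, 26 of 50 changed by -1 and 11 of 13441 unchanged. Python 3.11.15, pandas 2.3.3 and statsmodels 0.14.6 were used. Named genes are all 10 members, list genes at 2-fold with 5 FPKM, up to 4 per list by mean absolute change, and the 5 most like TMSB10 and ACTB; GAPDH, TPM2, TAGLN, SRF, MRTFA, ACTA2 and other such genes were named after their values were seen. Some genes that this rule or the marker lists hold are not reported here. The members and lists were chosen with earlier results of these data known. Alternatives changed the pseudocount, filter, scaling, length trend, variance trend and line term.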

Additional observations from a re-analysis of the deposited data

Results flagged for a closer look

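Of 39 genes named by rule, 8 had changes of opposite sign in the lines, against 32.2% of all genes measured in both lines. The 39 include genes picked for a pattern like that of TMSB10 or ACTB, all higher with morusin in both lines. They also include list genes picked for large changes, so the count cannot be compared with that share. None of the 8 was among the 9 actin, thymosin, profilin and cofilin genes measured in both lines. TMSB15A was under the filter in PC3 and could not be flagged. TMSB10 and TMSB4X were selected or filtered on treated 22Rv1. The change in 22Rv1 minus that in PC3 was 1.36 for FHOD1, 0.94 for SSH2 and 0.93 for SSH3, and it was -0.62 for WASL, -0.51 for ACTR2, -0.87 for DIAPH2, -0.86 for TPM4 and -0.86 for MYH9. With 1 library per group these differences between lines were not tested.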

How the results depend on the processing

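The number of the 10 genes at least 2-fold higher in 22Rv1 was 1 as given (3.4% of all genes). It was 2 with a pseudocount of 0.1, where TMSB15A joined (6.2% of all genes). It was 0 with libraries rescaled to equal sums (1.84% of all genes) or to the nuclear protein-coding sum (1.69%). With the length trend removed it was also 0 (2.23% of all genes). In PC3 it was 1, ACTG1, under every alternative run, where 0.566% to 1.99% of all genes passed. The number 2-fold higher in untreated PC3 was 1 as given and 2, with CFL2, under a pseudocount of 0.1, rescaling to equal sums or median centring. Of all genes 19.2% passed as given, and 22.35%, 20.58% and 21.18% under these alternatives. The number 2-fold higher in untreated 22Rv1 was 3 as given and 2, without TMSB15A, under a pseudocount of 5 or median centring. The shares of all genes were 19.8% as given, then 9.2% and 17.2%. The change was 2-fold larger in PC3 than in 22Rv1 for 0 of the set as given and for 1, ACTG1, after median centring or length detrending. As given 1.02% of all genes passed, and the shares after centring or detrending were not computed. In the shared test the count was 0 (0.565% of all genes) and became 1, ACTG1, after rescaling to equal sums, where 11.1% of all genes were called. Without the replicate block (no line term) it was 0, as for all genes. Libraries were paired by cell line. Genes called in that test numbered 79 as given, 33 with a pseudocount of 5, 51 without a variance trend, 128 after median centring, 1546 after rescaling, and 0 without a filter or without the line term. Genes at least 2-fold higher and lower in 22Rv1 numbered 453 and 136 (76.9% higher); after rescaling to equal sums they were 244 and 351 (41%), after coding-sum rescaling 224 and 411 (35.3%), after length detrending 296 and 180 (62.2%), with a pseudocount of 0.1 827 and 376, and with 5, 150 and 33. In PC3 they were 158 and 340 (31.7% higher), with a pseudocount of 5 73 and 85 (46.2%), with 0.1 257 and 679, after coding-sum rescaling 138 and 520 (21%), and after length detrending 150 and 214. The cause of these shifts was not tested. Under rescaling to equal sums the all-gene median was -0.18 in 22Rv1 and -0.14 in PC3. Changes of single members kept their sign in 63 of 63 comparisons in PC3; in 22Rv1 5 of 68 turned, all of PFN2 or DSTN. Leaving out a library was not run, since it leaves no residual degrees of freedom. Depth limits TMSB4X and TMSB15A in 22Rv1.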
